A study of Mus musculus with 20 samples.

Results

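The NRF2 antioxidant genes and the metallothioneins were followed as 10 transcripts in macrophages grown from mouse fetal liver. They were taken by gene symbol from 52636 genes listed in each of 2 tables, and all 10 were found. The regulators were Nfe2l2 and Keap1, the targets were Nqo1, Gclm, Gclc, Txnrd1, Srxn1 and Prdx1, and the metallothioneins were Mt1 and Mt2.

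NRF2, the protein of Nfe2l2, is a transcription factor that KEAP1 binds in the cytosol and hands to a ubiquitin ligase for degradation. Electrophiles and peroxides modify cysteines of KEAP1, NRF2 then accumulates, pairs with small MAF proteins and binds antioxidant response elements of genes for glutathione synthesis, the thioredoxin system and quinone reduction. Metallothioneins are small cysteine-rich proteins that bind zinc and copper, and their genes are driven by the zinc sensor MTF1 through metal response elements. In macrophages both systems buffer the oxidants that these phagocytes make themselves.

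Each of 5 animals gave 4 libraries. KO-84, KO-94 and KO-179 were labelled as conditional HuR knockouts (Csf1r-iCre with HuR fl/fl), and WT-280 and WT-281 as controls (Csf1r-iCre with HuR +/+), so every animal carried the Cre, which Csf1r sequences direct to cells of the macrophage lineage. All of them also expressed ribosomal protein L10a fused to EGFP, with a driver that the sources used here do not give. Cells of E14.5 embryos (E14.4 in the growth protocol) were cultured for 6 days with L cell conditioned medium and then kept for 18 h in hypoxia, at 1% oxygen, or in normoxia, at 20% oxygen. Each lysate was divided into ribosomes pulled down through EGFP, called TRAP, and total RNA, called input, and both were sequenced after poly(A) selection. The groups therefore held 3 KO or 2 WT libraries for each oxygen level and fraction, 20 libraries in all. Values are TPM, shares of all transcripts in a library that are scaled for transcript length and can be compared between genes. Sequencing depth is unknown, and 10243 to 12402 genes reached 1 TPM in a library.

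The labels were checked first. Elavl1, the gene of HuR, was not lower in the libraries labelled KO: in normoxia input it measured 40.1, 154 and 43.0 TPM in KO-84, in KO-94 and in KO-179, against 47.3 and 25.9 TPM in WT-280 and WT-281. In hypoxia input and at both oxygen levels in TRAP, the KO and WT libraries overlapped. A value for the whole gene cannot show whether its targeted part or the HuR protein was lost, so loss of HuR was not tested. The genotype is therefore given below as a label only. The oxygen labels were checked with Ankrd37, a HIF target, which was higher in hypoxia in all 5 animals in both fractions, while Vegfa was higher in 2 of 5 in TRAP and in 1 of 5 in input. Summed over 8 macrophage markers, the libraries held 5504 to 18146 TPM. Animal KO-94 stood apart from the other animals: both of its input libraries lay above the other 8 for 38.2% of the genes tested and below them for 7.44%, and in TRAP these shares were 17.2% and 3.97%.

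The members differed widely in level. In input, Prdx1 averaged 2475 ± 777 TPM (SD, n = 10 libraries), Mt1 2182 ± 947 TPM and Mt2 461 ± 260 TPM, and all 3 lay among the 308 genes of highest mean. Nfe2l2 followed at 119 ± 42.5 TPM, then Srxn1 at 57.9 ± 35.0 TPM, Txnrd1 at 39.4 ± 36.4 TPM, Gclm at 27.4 ± 9.09 TPM, Keap1 at 17.8 ± 8.87 TPM, Gclc at 17.4 ± 8.83 TPM and Nqo1 at 8.90 ± 7.06 TPM. Prdx1 and Mt1 did not differ beyond their spread, nor did neighbours in the order from Srxn1 down. In TRAP the order was the same for the first 7 genes, with Prdx1 at 2863 ± 1096 TPM and Nfe2l2 at 106 ± 36.8 TPM, and Nqo1 was again last at 3.21 ± 3.51 TPM.

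**Figure D1:**
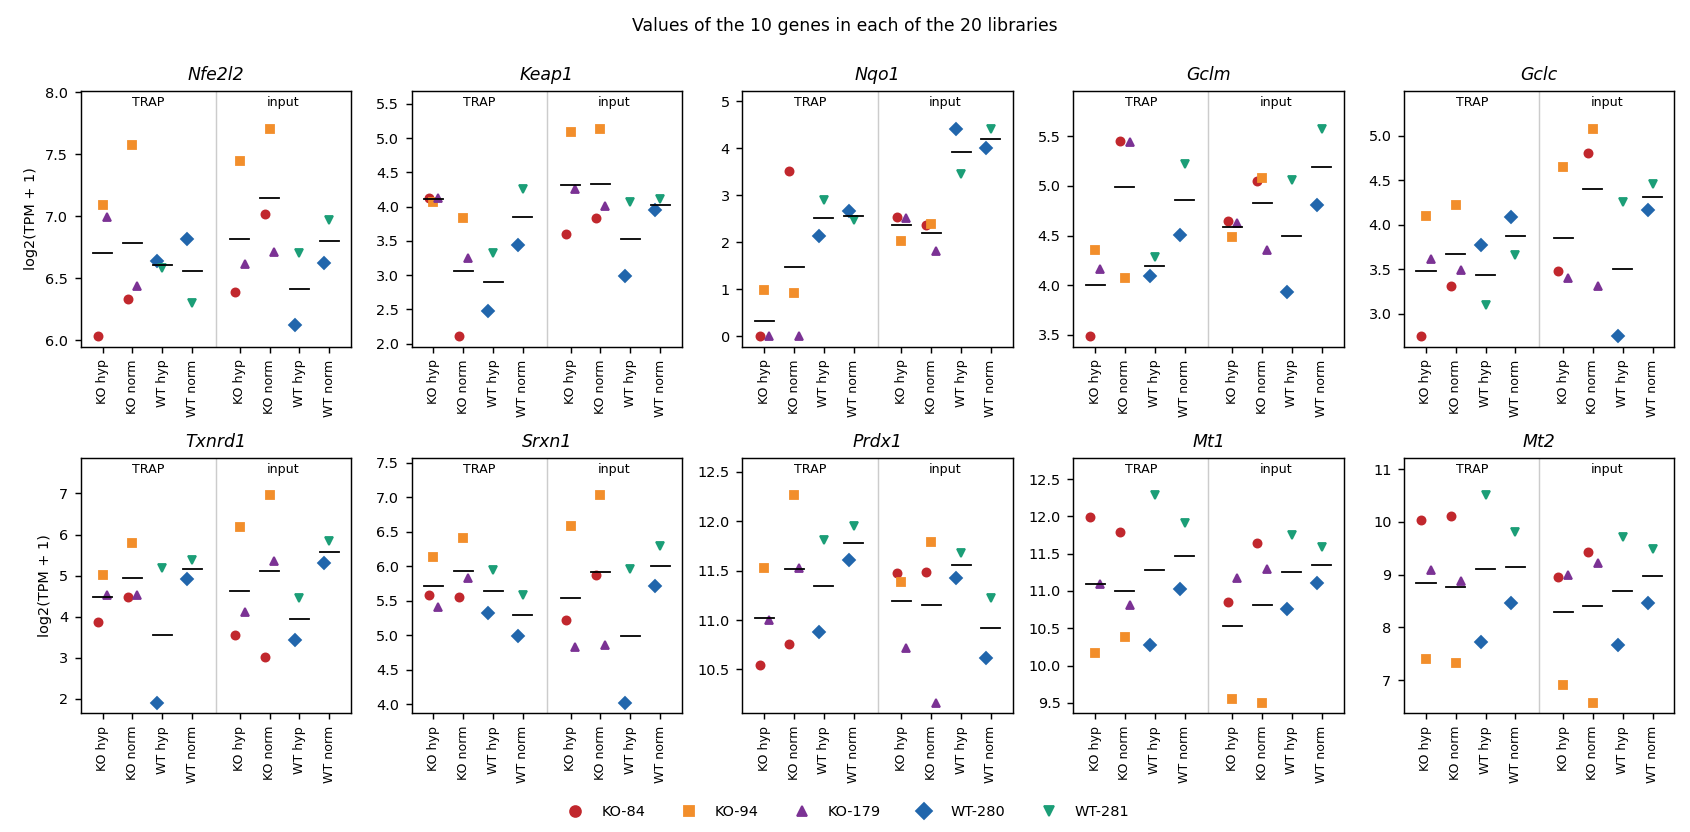
Levels of the 10 genes as log2(TPM + 1), with TRAP on the left and input on the right of each panel and each group (KO or WT, hypoxia or normoxia) in its own column; a point is 1 library, its colour and shape the animal, and a bar the group mean. Nqo1 is the panel where the KO input points lie below all WT input points, and Mt1 and Mt2 are the panels where KO-94 is low at both oxygen levels.

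Promoter sequences were taken from RefSeq (GRCm38.p6, the build of the files), as windows of 300 bases. Each runs from 250 bases before to 50 after a start listed for the gene. That start can lie inside the gene's span, as for Mt1 and Gclm. Of the 10 genes, 9 had such a window. The core of the antioxidant response element, TGACNNNGC searched on both strands, was present in windows of 6 of the 9 genes and in 12.4% of all 32851 promoters. These are the 6 matches, each printed on the strand of its gene with the core in capitals, because the core is what NRF2 with a small MAF partner is known to bind. That of Txnrd1 lies in 1 of its 3 windows, and 4 of the 6 read TGACNNNGC on the opposite strand.
Nfe2l2 (chr2:75704883-75704913, minus strand): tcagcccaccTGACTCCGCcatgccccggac
Gclm (chr3:122245411-122245443, plus strand): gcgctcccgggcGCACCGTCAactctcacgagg
Txnrd1 (chr10:82859102-82859134, plus strand): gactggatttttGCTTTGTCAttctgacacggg
Srxn1 (chr2:152105540-152105572, plus strand): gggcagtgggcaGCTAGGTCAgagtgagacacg
Prdx1 (chr4:116685454-116685486, plus strand): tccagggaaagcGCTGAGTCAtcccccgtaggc
Mt2 (chr8:94172527-94172559, plus strand): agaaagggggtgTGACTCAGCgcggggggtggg
Prdx1 and Mt2 share the same 9 letters of core, read on opposite strands. No window of Nqo1, Keap1 or Mt1 held these letters. Bases more than 250 before a listed start were not searched, so this does not show that these genes lack the element.

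No member passed the test in any of 15 comparisons of oxygen, genotype or fraction. The test was limma on log2(TPM + 1), with Benjamini-Hochberg adjustment over all genes and a threshold of 0.05. For hypoxia against normoxia over both genotypes it called 0% of the 13901 genes tested in input and 0% of the 13522 in TRAP, and an unadjusted p under 0.05 was reached by 321 and 339 genes in input and TRAP, no member among them. With the animal as a replicate block, which compares hypoxia with normoxia within each animal, limma again called no gene. That unadjusted level was then reached by 1316 genes in input, Txnrd1 and Srxn1 among them, and by 945 in TRAP, Prdx1 and Txnrd1 among them. Their adjusted p-values with the block were 0.515 for both genes in input, and 0.664 for Prdx1 and 0.696 for Txnrd1 in TRAP (limma). The values below are therefore descriptions, and in cultures measured in bulk, fewer cells of a type and less RNA per cell cannot be told apart. Of the 10 members, 2 were lower in hypoxia in all 5 animals in input, where 7.02% of all genes were, and 2 in TRAP, where 2.8% were. At least 4 of 5 animals were lower for 6 members in input (27.9% of all genes) and for 4 in TRAP (16.2%). No member was higher in all 5 animals in either fraction, as 2.41% of all genes were in input and 3.45% in TRAP. Where not given beside a gene below, the fitted log2 changes were −0.26 for Keap1, −0.05 for Nqo1 and −0.47 for Gclm in input, and −0.01 for Nfe2l2, 0.04 for Keap1, −0.59 for Nqo1 and 0.06 for Srxn1 in TRAP. The value of Nqo1 in TRAP rested on KO-84, listed at 0 in hypoxia, and was −0.0015 without that animal. The median of the members' fitted log2 changes was −0.31 in input and −0.18 in TRAP, beside −0.15 and 0.01 over all genes.

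**Figure D2:**
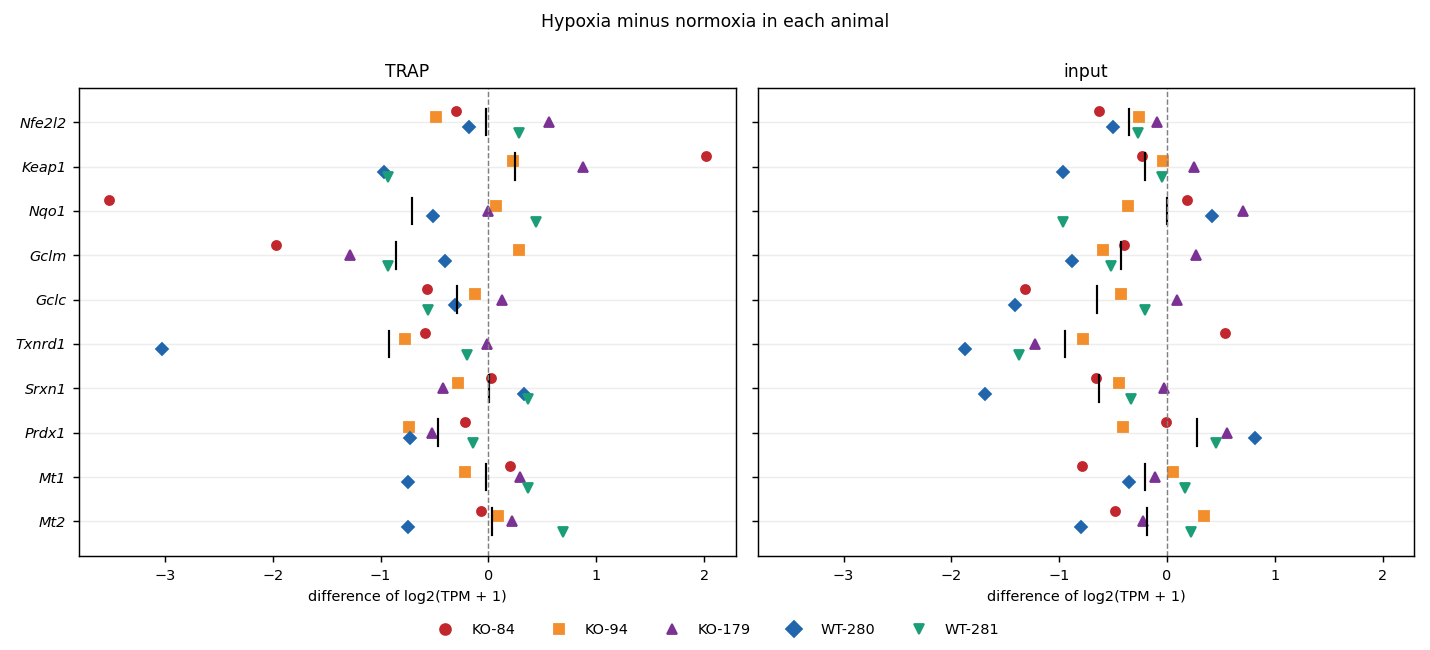
Hypoxia minus normoxia in log2(TPM + 1) for each gene and animal, TRAP in the left panel and input in the right one; a point is 1 animal, the upright bar the mean of the 5 animals and the dashed line no difference. In input all 5 points of Nfe2l2 and Srxn1 lie left of the line, and in TRAP all 5 of Txnrd1 and Prdx1.

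Of the regulators, Nfe2l2 was lower in hypoxia in all 5 animals in input. In input it measured 82.7, 173 and 96.9 TPM in hypoxia in KO-84, in KO-94 and in KO-179, against 128, 208 and 104 TPM in normoxia. In WT-280 and WT-281 it measured 68.7 and 103 TPM in hypoxia, against 97.8 and 125 TPM in normoxia. The 2 oxygen levels overlapped across animals, and KO-94 was the highest at both. The fitted change was −0.36 ± 0.33 on the log2 scale (SE; adjusted p = 0.999, limma), and −0.37 without KO-94. In TRAP it measured 64.4, 135, 127, 98.4 and 94.7 TPM in hypoxia in KO-84, KO-94, KO-179, WT-280 and WT-281, against 79.5, 190, 85.6, 112 and 77.7 TPM in normoxia. Here 3 animals were lower and 2 higher.

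Keap1 lay higher in hypoxia in the KO animals and lower in the WT animals in TRAP. It measured 16.4, 15.8 and 16.4 TPM in hypoxia in KO-84, in KO-94 and in KO-179, against 3.31, 13.3 and 8.47 TPM in normoxia. In WT-280 and WT-281 it measured 4.55 and 8.98 TPM in hypoxia, against 9.90 and 18.0 TPM in normoxia. Every KO animal was thus higher and every WT animal lower in hypoxia, and the difference between the 2 responses was 1.99 ± 0.98 on the log2 scale (SE; limma, unadjusted p = 0.0613, adjusted p = 1; 0% of 13522 genes were called). The share of all genes with such opposite signs was not counted. In input, Keap1 spanned 6.92 to 33.1 TPM in hypoxia and 13.3 to 34.1 TPM in normoxia, with KO-94 highest at both. The ratio of Nfe2l2 to Keap1 transcripts ranged from 3.92 to 24.0 over the 20 libraries, with a median of 7.69.

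Nqo1, a quinone reductase and the usual reporter of NRF2 activity, was the member that differed most by genotype label. In input it measured 4.84, 3.09 and 4.75 TPM in KO-84, in KO-94 and in KO-179 in hypoxia, against 20.3 and 9.89 TPM in WT-280 and WT-281. In normoxia input it measured 4.13, 4.25 and 2.54 TPM in the KO animals, against 15.0 and 20.2 TPM in the WT animals. All 6 KO input libraries lay below all 4 WT input libraries, as was so for 0.482% of all genes in input and for 1.02% in TRAP, and of the members for Nqo1 in input only. The fitted difference KO minus WT was −1.56 ± 0.59 in hypoxia (SE; limma, adjusted p = 0.736) and −2.01 ± 0.59 in normoxia (adjusted p = 1). The unadjusted p-values were 0.0206 in hypoxia and 0.00484 in normoxia (limma). Both comparisons called 0% of 13901 genes, and without KO-94 the differences were −1.39 and −2.11. The median over all genes was 0.36 in hypoxia and 0.11 in normoxia. On log2(TPM + 1) such values understate the change of genes at this level.

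The KO input libraries were also low in fibroblast transcripts. Summed over 10 fibroblast markers, of which Acta2 made up 60.1%, they held 84.4 to 293 TPM, against 353 to 575 TPM in WT input libraries, and in TRAP 4.64 to 92.2 TPM against 79.0 to 156 TPM. No marker of the list was at 0 in all 20 libraries. The 5 megakaryocyte markers, of which Pf4 made up 99.6%, also summed to less in KO input libraries, 1620 to 10237 TPM, against 13196 to 16942 TPM in WT input libraries. That sum follows Pf4 and does not show which cells made it. The 8 macrophage markers summed to 6181 to 12971 TPM in KO input and 8927 to 14169 TPM in WT input, where Lyz2 made up most of the sum. Of the 8, 7 had a higher fitted level in KO at each oxygen level (median 0.62 in hypoxia and 0.67 in normoxia). Over all genes tested in input, 69.7% lay higher in KO in hypoxia and 57.2% in normoxia. The part of these marker transcripts in the Nqo1 difference was not tested. In TRAP Nqo1 was listed at 0 in KO-84 in hypoxia and in KO-179 at both oxygen levels, and measured 0.977 TPM in KO-94 in hypoxia and 10.5 and 0.884 TPM in KO-84 and KO-94 in normoxia. The WT animals WT-280 and WT-281 had 3.43 and 6.48 TPM in hypoxia and 5.32 and 4.52 TPM in normoxia. The groups overlapped through the normoxia library of KO-84, and the fitted difference was −2.20 ± 0.92 in hypoxia (adjusted p = 1) and −1.08 ± 0.92 in normoxia (adjusted p = 0.952), both by limma with 0% of genes called. The normoxia value was −0.35 to −2.11 when 1 animal was left out, the larger size being that without KO-84.

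Gclm and Gclc encode the modifier and catalytic subunits of glutamate-cysteine ligase, the first enzyme of glutathione synthesis. Gclm in TRAP measured 10.2, 19.5, 16.9, 16.1 and 18.5 TPM in hypoxia in KO-84, KO-94, KO-179, WT-280 and WT-281, against 42.8, 15.8, 42.4, 21.7 and 36.2 TPM in normoxia. It was lower in hypoxia in 4 animals and higher in KO-94, whose normoxia library alone kept the 2 oxygen levels from lying apart. The fitted change was −0.83 ± 0.44 (SE; adjusted p = 1, limma), and −1.15 without KO-94. In input Gclm measured 24.1, 21.4, 23.7, 14.2 and 32.3 TPM in hypoxia in the same order of animals, against 32.2, 32.8, 19.5, 27.0 and 46.7 TPM in normoxia. Oxygen took 33.9% of the sum of squares of Gclm over the 20 libraries, where the median gene had 1.89%.

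Gclc, the catalytic subunit, was lower in hypoxia in the same 4 of 5 animals in both fractions, with KO-179 slightly higher. In input it measured 10.2, 24.0, 9.60, 5.73 and 18.1 TPM in hypoxia in KO-84, KO-94, KO-179, WT-280 and WT-281, against 26.9, 32.7, 8.93, 16.9 and 20.9 TPM in normoxia. In TRAP it ranged from 5.72 to 16.1 TPM in hypoxia and from 8.96 to 17.7 TPM in normoxia. The fitted changes were −0.68 ± 0.49 in input (adjusted p = 0.999, limma) and −0.31 ± 0.47 in TRAP (adjusted p = 1). The input value was −0.38 without WT-280 and −0.98 without WT-281. There were 1.78 Gclm transcripts for each of Gclc in the median library, with a range of 0.892 to 4.78, so the 2 subunits did not keep a fixed ratio.

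Txnrd1, the cytosolic selenoenzyme that reduces thioredoxin, had the largest fitted oxygen difference among the members in both fractions, a rank that in TRAP rested on WT-280. In TRAP it measured 13.7, 31.5, 21.9, 2.75 and 35.4 TPM in hypoxia in KO-84, KO-94, KO-179, WT-280 and WT-281, against 21.2, 54.3, 22.2, 29.5 and 40.8 TPM in normoxia. All 5 animals were lower, by a margin that ran from 0.02 in KO-179 to 3.02 in WT-280 on the log2 scale. The fitted change was −1.03 ± 0.59 (SE; adjusted p = 1, limma), and −0.33 without WT-280, where Gclm stood at −0.96. Without WT-281 it was −1.74. In input it measured 10.8, 71.3, 16.4, 9.77 and 21.1 TPM in hypoxia, against 7.14, 123, 39.6, 38.5 and 56.3 TPM in normoxia, in the same order of animals. Here KO-84 was higher and the other 4 lower, with a fitted change of −1.06 ± 0.70 (adjusted p = 0.999, limma).

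Srxn1 encodes sulfiredoxin, which repairs over-oxidised peroxiredoxins. Prdx1 encodes a cytosolic peroxiredoxin, and its transcript was the most abundant of the peroxiredoxins listed here. In input Srxn1 measured 36.2, 94.7, 27.5, 15.2 and 61.2 TPM in hypoxia in KO-84, KO-94, KO-179, WT-280 and WT-281, against 57.8, 130, 28.1, 51.2 and 77.4 TPM in normoxia. It was lower in all 5 animals, with a fitted change of −0.69 ± 0.53 (SE; adjusted p = 0.999, limma) that was −0.36 without WT-280 and −1.03 without WT-281. In TRAP it spanned 38.9 to 69.0 TPM in hypoxia and 30.8 to 84.1 TPM in normoxia, with 2 animals lower and 3 higher. Prdx1 had fitted changes of opposite sign in the fractions, neither of which passed. In TRAP it measured 1488, 2954, 2049, 1883 and 3578 TPM in hypoxia, against 1730, 4915, 2942, 3127 and 3963 TPM in normoxia, and every animal was lower. In input it measured 2842, 2674, 1686, 2751 and 3278 TPM in hypoxia, against 2869, 3547, 1145, 1563 and 2393 TPM in normoxia, and 3 of 5 animals were higher. The fitted changes were −0.47 ± 0.36 in TRAP (adjusted p = 1, limma) and 0.34 ± 0.36 in input (adjusted p = 0.999). The input value was 0.21 without KO-179 and 0.45 without KO-94. The oxygen effect on the ratio of TRAP to input was −0.81 ± 0.52 for Prdx1 (limma, unadjusted p = 0.135, adjusted p = 1), in a comparison that called 0% of 14842 genes. That fit did not pair the libraries of an animal, so its SE includes the spread between animals. With the lysate as a replicate block the comparison again called no gene. With the animal as a block, the SEs of the Prdx1 changes were 0.14 in TRAP and 0.16 in input (adjusted p = 0.664 and 0.524, limma).

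Mt1 and Mt2 varied more with the animal than with oxygen. Mt1 in input measured 1850, 751, 2313, 1733 and 3452 TPM in hypoxia in KO-84, KO-94, KO-179, WT-280 and WT-281, against 3198, 724, 2505, 2211 and 3085 TPM in normoxia. Mt2 in input measured 493, 120, 510, 202 and 836 TPM in hypoxia, against 689, 94.2, 596, 354 and 715 TPM in normoxia. Both genes were lowest in KO-94, and in 3 of 5 animals they were lower in hypoxia. In TRAP, Mt1 measured 4073, 1151, 2194, 1242 and 4982 TPM in hypoxia, against 3541, 1337, 1792, 2080 and 3862 TPM in normoxia, and Mt2 1055, 169, 545, 209 and 1451 TPM in hypoxia, against 1104, 159, 467, 352 and 897 TPM in normoxia. KO-94 and WT-280 were the low animals for Mt2 in both fractions. The fitted oxygen differences were −0.19 ± 0.47 for Mt1 and −0.20 ± 0.63 for Mt2 in input, and −0.05 ± 0.47 and 0.03 ± 0.67 in TRAP (SE; adjusted p = 0.999 in input and 1 in TRAP, limma).

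The animal took 89.3% of the sum of squares of Mt2 over the 20 libraries and 81.5% of that of Mt1. The median over 14842 genes was 41.2%, and among the other members the share ran from 17.7% for Gclm to 65.1% for Nfe2l2. Oxygen took 0.116% for Mt2 and 0.562% for Mt1. The 2 metallothionein genes also kept apart in their ratio by animal: Mt1 was 6.26 to 8.39 times Mt2 in KO-94 and 5.91 to 8.56 times in WT-280, while the other 3 animals had ratios of 3.21 to 4.64.

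**Figure D3:**
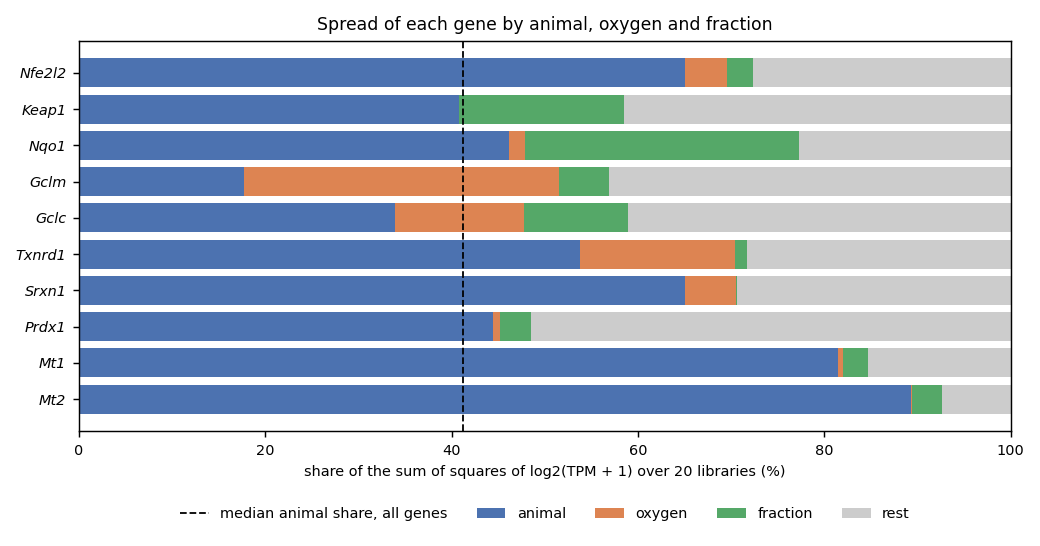
Share of the sum of squares of log2(TPM + 1) over the 20 libraries taken by animal, oxygen level and fraction for each gene, in percent, with the rest in grey; the dashed line marks the median animal share over all genes, 41.2%. Mt2 and Mt1 have the longest animal bars, and Gclm the longest oxygen bar, at 33.9%.

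The 2 genes are neighbours on chromosome 8, Mt2 at 94172618 to 94173567 and Mt1 at 94178883 to 94180327 in GRCm38, with 5315 bases between them. Their promoters are printed whole because the pair moved together across animals; the core of the metal response element, TGCACNC or TGCGCNC on either strand, is in capitals.
Mt1 (chr8:94178839-94179138, plus strand): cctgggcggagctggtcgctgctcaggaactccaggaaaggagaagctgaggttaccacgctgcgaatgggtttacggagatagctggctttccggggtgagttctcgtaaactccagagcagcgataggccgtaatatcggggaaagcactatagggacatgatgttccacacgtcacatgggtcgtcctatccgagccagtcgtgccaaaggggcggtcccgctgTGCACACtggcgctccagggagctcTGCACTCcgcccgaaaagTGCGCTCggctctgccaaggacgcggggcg
Mt2 (chr8:94172368-94172667, plus strand): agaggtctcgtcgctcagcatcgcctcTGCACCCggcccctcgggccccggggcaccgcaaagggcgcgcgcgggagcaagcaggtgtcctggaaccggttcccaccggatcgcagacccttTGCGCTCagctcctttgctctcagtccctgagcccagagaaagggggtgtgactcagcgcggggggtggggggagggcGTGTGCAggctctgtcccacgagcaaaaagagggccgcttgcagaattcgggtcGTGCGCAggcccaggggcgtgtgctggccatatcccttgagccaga
The window of Mt1 lies mostly inside the span given above for the gene, because the start listed for it is further downstream. The window of Mt1 held 3 such cores and that of Mt2 held 4. At least 1 core was found in 25.7% of all promoters and at least 3 in 1.97%. Gclm also had 3 and Srxn1 had 1, and the other 5 genes with a window had none. The letters ACGTG, a form of the HIF core, were on either strand in the windows of Mt1, Gclm and Keap1 and in 19.6% of all promoters. The form GCGTG was not searched.

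The low metallothionein level of KO-94 went along with other features of its libraries. Cytosolic ribosomal protein genes, also abundant, summed to 46179 to 55925 TPM in KO-94 input and to 62346 to 111180 TPM in the input of the other animals. In TRAP the sums were 97170 to 101161 TPM in KO-94 and 48516 to 167070 TPM in the others. Genes with a genomic span under 2000 bases, among them Mt1 and Mt2, lay at a median of −0.47 on the log2 scale in KO-94 input relative to the other animals, while longer genes lay at 0.80. Mt1 lay at −1.74 and Mt2 at −2.25 by the same measure. Relative to the median ribosomal protein gene of its own library, Mt1 in input lay 0.37 to 0.55 above in KO-94 and 0.73 to 1.59 above in the other animals on the log2 scale. By that measure Mt2 spanned −2.38 to −2.26 in KO-94 input and −1.62 to −0.46 in the other animals. In TRAP Mt1 lay at 0.22 to 0.48 in KO-94 and at 0.93 to 1.79 in the others, so both genes stayed lower in KO-94 on this scale, which was chosen after the data were seen. Sums over marker lists named for other cell types, each made up mostly of 1 gene, differed too. Such sums do not show which cells made the transcripts. The 9 hepatocyte markers, of which transferrin (Trf) made up 88.0%, summed to 373 to 429 TPM in KO-94 input. In the input of the other animals they summed to 29.2 to 99.3 TPM. The megakaryocyte list, of which Pf4 made up 99.6%, summed to 1620 to 2133 TPM in KO-94 input and to 7447 to 16942 TPM in the others. No marker of these lists was at 0 in all 20 libraries. In KO-94 input, 3 of the 9 hepatocyte and 2 of the 5 megakaryocyte markers averaged at least 1 TPM. The part of these marker transcripts, of cell types, of transcript length or of RNA quality in these levels was not tested.

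**Figure D4:**
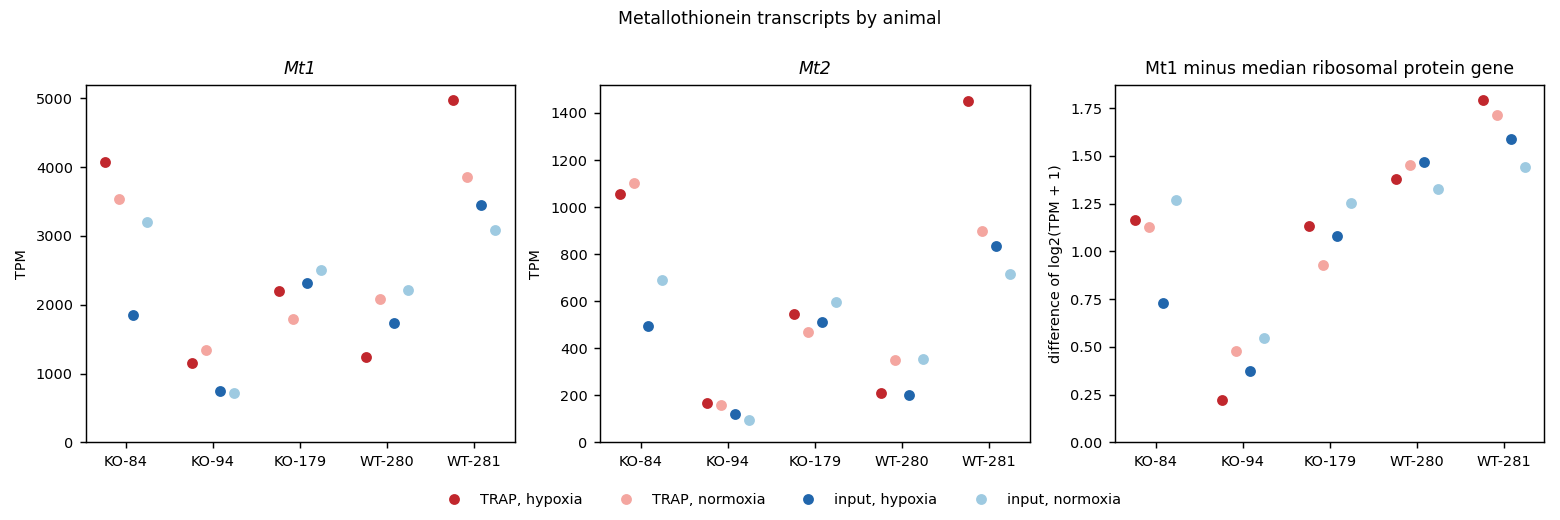
Mt1 and Mt2 in TPM for each library, by animal (left and middle), and the difference in log2(TPM + 1) between Mt1 and the median cytosolic ribosomal protein gene of the same library (right); a point is 1 library, coloured by fraction and oxygen level. KO-94 has the lowest points of the right panel, 0.22 to 0.55.

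The same animal was the highest for other members. Both KO-94 libraries lay above the other 8 for Nfe2l2 and Srxn1 in both fractions, for Keap1 and Txnrd1 in input and for Gclc in TRAP. In input this made 4 of 10 members, set beside 38.2% of all genes, and in TRAP 3 of 10, beside 17.2%. For Txnrd1 the input values were 71.3 and 123 TPM in KO-94, against 7.14 to 56.3 TPM in the other animals. In input the members' share was close to that of all genes.

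Ribosome-bound and total RNA were then compared over all conditions. limma called 0.687% of 14842 genes, 5 higher and 97 lower in TRAP, and no member. Nqo1 was nearest, at −1.45 ± 0.39 on the log2 scale (SE; adjusted p = 0.120), and was lower in TRAP in 9 of 10 lysates, as 11% of all genes were in at least 9. With the lysate as a replicate block, which compares the 2 fractions within each lysate, limma called 5.49% of the genes tested, 4.35% being called as lower in TRAP, and Nqo1 passed with an adjusted p of 0.0359. That block counted the 10 lysates as separate, although they came from 5 animals. In the fit without the block, 9 of 9 fibroblast markers tested were lower in TRAP and 3 of them passed. Acta2 lay at −2.83 (adjusted p = 0.00141, limma). Of the macrophage markers, 7 of 8 were lower in TRAP (median −0.40), and of the hepatocyte markers 6 of 7 tested (median −0.46), with none of them called. Most genes leaned the same way: 31.8% of all genes tested lay higher in TRAP, and their median was −0.19. The part of these marker transcripts in the Nqo1 difference was not tested.

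Mt2 was the member most often higher on ribosomes. It was higher in TRAP than in input in 8 of 10 lysates, as 5.33% of all genes were in at least 8, with a fitted difference of 0.38 ± 0.52 (SE; adjusted p = 0.817, limma). In KO-84 it had 1055 TPM in TRAP and 493 TPM in input in hypoxia, and 1104 TPM in TRAP and 689 TPM in input in normoxia. Keap1 was lower in TRAP in 8 of 10 lysates, at −0.57 ± 0.32 (adjusted p = 0.466). The share of all genes lower in at least 8 lysates was not counted. The median over all genes was −0.19, and the other 7 members lay between −0.40 and 0.22.

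**Figure D5:**
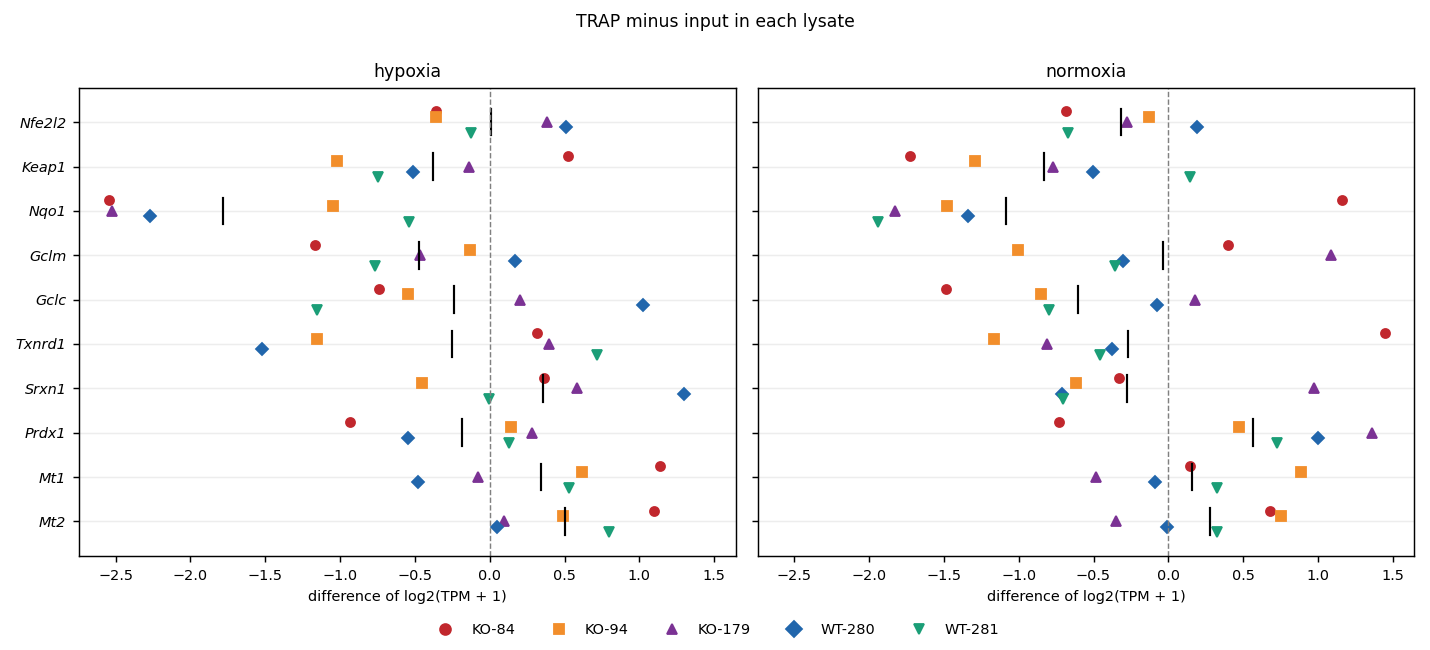
TRAP minus input in log2(TPM + 1) for each gene and lysate, hypoxia in the left panel and normoxia in the right one; a point is 1 animal, the upright bar the mean of the 5 and the dashed line no difference. The points of Nqo1 lie left of the line except KO-84 in normoxia, at 1.16, and 8 of the 10 points of Mt2 lie right of it.

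Other genes of the pathway were read from lists, none of whose members passed in an oxygen comparison; over all genes the median oxygen change was −0.15 in input and 0.01 in TRAP, and 35.1% of them lay higher in hypoxia in input and 51.2% in TRAP. Of 12 regulators and partners of NRF2, 3 lay higher and 9 lower in hypoxia in input, with a median of −0.40, and 4 higher and 8 lower in TRAP, with a median of −0.28. Rbx1, of the ubiquitin ligase that KEAP1 recruits, was the most abundant at 447 TPM over the 20 libraries, followed by Sqstm1, the autophagy adaptor that binds KEAP1, at 418 TPM, and Nfe2l1, a relative of NRF2, at 51.4 TPM. In input the smallest unadjusted p of the list was 0.118, for Sqstm1, with 412 TPM in hypoxia and 583 TPM in normoxia on average, and the next was 0.138, for Mafk. In TRAP the smallest was 0.0341, for the small MAF partner Mafg (limma, adjusted p = 1), with a fitted change of 1.54. It averaged 34.9 ± 13.8 TPM in hypoxia and 28.4 ± 29.7 TPM in normoxia in TRAP (SD), and 2 of 5 animals were lower in hypoxia. Its lowest value over the 20 libraries was 0. In input it averaged 29.4 TPM in hypoxia and 36.7 TPM in normoxia, lower in all 5 animals (fitted −0.30).

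Of 33 other NRF2 targets, 30 were tested. In hypoxia 10 lay higher and 20 lower in input (median −0.20), and 11 higher and 19 lower in TRAP (median −0.16). The most abundant were the ferritin subunits Fth1, at 64452 TPM over the 20 libraries, and Ftl1, at 29722 TPM, and thioredoxin, Txn1, at 1235 TPM. Gsta4, a glutathione transferase, had the smallest unadjusted p in input, 0.0379, with means of 0.908 TPM in hypoxia and 3.23 TPM in normoxia. Next came Cat, which encodes catalase, with 85.2 TPM in hypoxia and 144 TPM in normoxia in input and an unadjusted p of 0.0418. In TRAP Gsta4 was listed at 0 in all 5 hypoxia libraries and in the normoxia libraries of the 3 KO animals, and had 9.88 and 7.93 TPM in normoxia in WT-280 and WT-281. It was thus lower in hypoxia in 2 of 5 animals (limma, unadjusted p = 0.000366, adjusted p = 1), and that p rests on groups with no spread among libraries at 0.

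Enzymes that remove superoxide and peroxides formed the next list. Of 19 tested out of 20 listed, 13 lay higher and 6 lower in hypoxia in input (median 0.23), and 11 higher and 8 lower in TRAP (median 0.18). The most abundant were Gpx4, which reduces lipid peroxides, at 898 TPM, Gpx1 at 717 TPM and Prdx5 at 424 TPM. The smallest unadjusted p in input was 0.0702, for Txnrd3, with 1.54 TPM in hypoxia and 3.40 TPM in normoxia (fitted −0.95), which in TRAP had 1.29 TPM in hypoxia and 0.568 TPM in normoxia (0.40). In TRAP it was 0.0575, for Txnip, a thioredoxin inhibitor, with 376 TPM in hypoxia and 309 TPM in normoxia (fitted 1.12), which in input had 329 TPM in hypoxia and 473 TPM in normoxia (−0.62). Of 18 genes of metal handling, 17 were tested, with 2 higher and 15 lower in input (median −0.29) and 8 higher and 9 lower in TRAP (median −0.09). The iron and manganese transporter Slc11a1, at 108 TPM, was the most abundant, before the zinc transporter Slc30a5 at 29.8 TPM and the copper transporter Slc31a1 at 29.0 TPM. Singled out after the values were seen, Mtf1, which drives the metallothionein genes, averaged 14.7 TPM in hypoxia and 10.5 TPM in normoxia in input (limma, unadjusted p = 0.264). In TRAP it averaged 13.7 TPM in hypoxia and 13.4 TPM in normoxia, with a fitted change of −0.22. Likewise Mt4 was listed at 0 in all 20 libraries and Mt3 averaged 0.453 TPM, so Mt1 and Mt2 made up nearly all metallothionein transcripts.

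Likeness across the 20 libraries was measured as the root mean square difference of centred log2 values, among 7741 genes with a mean of at least 5 TPM. It is a description, since libraries of 1 animal share their cells, and it grows with a gene's own spread, so values of different members are not ranked. The nearest genes to Mt1 were Rpl38 (0.18), Rpl35a (0.24) and Cox8a (0.26), and those to Mt2 were Krtcap2 (0.35), Rps23-ps1 (0.36) and Tpt1-ps3 (0.37). Nfe2l2 was nearest to Rab1a (0.23), Mtpn (0.24) and Arl8b (0.25), and Gclc to Rab10 (0.33), Map3k20 and Rbm22. Srxn1 was nearest to Nfx1 (0.35), Tmem65 and Serp1, Prdx1 to Clec4a2 (0.39), Cryzl1 and Dram2, Keap1 to Grk2 (0.37), Ncf1 and Usp25, and Gclm to Phf12 (0.40). The nearest to Txnrd1 was Tox2 (0.62), then Hgs and Zfp777, and the nearest to Nqo1 was Fabp4 (1.01), then Tpm2 and Ezh2. Between members the smallest differences were 0.37 for Nfe2l2 with Gclc and 0.42 for Mt1 with Mt2.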

How the data were processed

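The deposited tables held 1 column per library, read as TPM because each column sums to 1000000. That sum alone does not show scaling for transcript length, and the sources used here do not say how the authors computed TPM. HISAT, DESeq2 and the build GRCm38 are named in the submitters' processing notes, without role. Another 20 per-animal columns of the tables were not used. Sequencing depth is unknown, so no counting interval is given. Genes reaching 1 TPM in 2 or more libraries were tested with limma 3.58.1 in R 4.3.3 (trend, Benjamini-Hochberg) on log2(TPM + 1), which understates changes of low genes. Input and TRAP were fitted apart for oxygen and genotype, and jointly for TRAP against input; an oxygen change over both genotypes weights KO and WT equally. Input and TRAP tables may have been normalized separately. The procedure was tested on simulated data. The members and gene lists were chosen with earlier results of these data known. Named genes were the members, the 3 most abundant genes and those of smallest p of each list, and the 3 genes nearest to each member, of which some are not reported here. Animals pair libraries, because the same number marks the same animal: an animal's deviations from its group means correlated between hypoxia and normoxia across genes, at 0.28 to 0.755 in input. Whether plates of 1 animal were separate cultures is not stated, and p-values measure the spread between these samples.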

Additional observations from a re-analysis of the deposited data

Results flagged for a closer look

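Keap1 in TRAP moved in opposite directions under hypoxia in the 2 genotype labels. The mean change on the log2 scale was 1.04 in KO animals, higher in 3 of 3, and −0.95 in WT animals, lower in 2 of 2. Such opposite signs were searched for in every member and both fractions, and the share of all genes showing them was not counted. limma gave the difference of the responses as 1.99 with an unadjusted p of 0.0613 and an adjusted p of 1, so it did not pass, and it ranged from 1.51 to 2.40 when 1 animal was left out.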

How the results depend on the processing

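Alternatives were quantile normalization, no filter on low values, pseudocounts of 0.1 and 5, no trend, the compared libraries alone, a replicate block, and leaving out each animal. Among the members' fold changes, 221 of 224 values under alternatives other than leaving out an animal or library had the same direction and the same side of the threshold; leaving 1 out, 189 of 209 did. Pairing by lysate as a replicate block raised the calls of TRAP against input to 815 and made Nqo1 pass (0.0359); the block changed no other call, and no paired analysis was possible for KO against WT, whose animals share no number. The lysate block counted 10 lysates as separate, although they came from 5 animals. Quantile normalization gave 61 calls for TRAP against input and turned the hypoxia changes of Nqo1 in input (0.0948) and Mt2 in TRAP (−0.041). It moved the median of all genes to −0.01 for hypoxia in input (−0.15 without it), 0.02 for TRAP against input (−0.19) and 0.005 for KO against WT in hypoxia input (0.36). Without the filter, 2 genes were called for hypoxia in WT input and 13 in WT TRAP, 1 and 1 for KO against WT in hypoxia and normoxia input, 10 and 2 in hypoxia and normoxia TRAP, and 14 and 12 for the TRAP to input ratio by oxygen and by genotype. With a pseudocount of 0.1, 1 gene was called for the difference of hypoxia responses in TRAP, and with 5, 1 each for KO against WT in hypoxia and normoxia TRAP. Leaving out 1 animal or library, calls ranged from 0 to 1 for hypoxia in input over both genotypes and in KO, 0 to 1 and 0 to 2 for KO against WT in hypoxia and normoxia input, 0 to 2 and 0 to 1 in TRAP, 0 to 6 for the ratio by genotype, and 30 to 81 for TRAP against input (30 without WT-281, 32 without KO-84, 50 without WT-280, 55 without KO-179). Hypoxia changes that turned then ranged in input from −0.49 to 0.0133 for Keap1, −0.39 to 0.29 for Nqo1, −0.32 to 0.0591 for Mt1 and −0.46 to 0.31 for Mt2. In TRAP they ranged from −0.17 to 0.10 for Nfe2l2, −0.20 to 0.25 for Keap1, −0.0029 to 0.11 for Srxn1, −0.33 to 0.23 for Mt1 and −0.33 to 0.39 for Mt2. TRAP against input ranged from −0.32 to 0.0578 for Nfe2l2 and −0.15 to 0.19 for Srxn1. The causes were not tested. Depth is unknown, and Nqo1 in TRAP lies near 0.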
